A study of Mus musculus with 7 samples.

Results

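Long genes hold most of their sequence far from any gene end, and their interiors are the regions described here. A long gene was a protein-coding gene of at least 100 kb on chromosomes 1 to 19 or X, and its interior was every 200 bp bin inside it that lay more than 20 kb from either end of any protein-coding gene. Of 21631 protein-coding genes, 2427 were long enough. All but 8 had some interior, 2399 had at least 20 kb of it, and the interiors covered 505 Mb, or 19.2% of these chromosomes. The genes were separated by whether the bin of either end was in state E5 or E6 in the control cells: 1281 genes had such an end and 1146 had none. E5 and E6 are the states that were concentrated at gene ends. Their strand was known for 1864 genes, through the RefSeq promoter table. E5 or E6 was at the start alone in 992 of these, at the far end alone in 6, at both in 18 and at neither in 848, so an E5/E6 end mostly meant a start.

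The cells were BALB/c-background leukaemia cells from mouse bone marrow that expressed mutant CSF3R and mutant CEBPA from retroviruses. They were cultured in IMDM with fetal bovine serum and received 4 nM GSK-LSD1, an inhibitor of the histone demethylase LSD1, or the solvent DMSO for 48 h. Both groups carried both mutant genes and differed, per the labels, by the inhibitor. Chromatin immunoprecipitation and sequencing of H3K4me1, H3K4me3 and H3K27Ac gave 3 libraries per treatment, with 1 input library besides, and the authors deposited 1 segmentation into states E1 to E6 for each treatment. With 1 segmentation per treatment there is no replicate, no test and no p-value. The values compare these 2 segmentations, the depth is unknown because they hold labels and no counts, and the 95% Wilson intervals cover counting error only, over neighbouring bins that are not independent. The sources used here do not say which marks lie behind a state, and a number such as E1 may stand for different marks in DMSO and in GSK-LSD1. E3 had the largest coverage and served as background, and every other state is called marked.

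LSD1 removes methyl groups from lysine 4 of histone H3 and works in repressive complexes with CoREST, histone deacetylases and the repressor GFI1. H3K4me1 is typical of enhancers and of the transcribed bodies of some genes, H3K4me3 of promoters, and H3K27Ac of active enhancers and promoters. The introns of long genes hold many enhancers and alternative start sites, and in blood cells the genes of several lineage regulators, such as Runx1 and Foxp1, are long and carry such elements within them. Introns and internal exons were not separated here.

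The sequence of a start is the only part of an interior given in the reference used here. Sequence could therefore be read only for E5/E6 sites at annotated starts inside interiors. Interiors held 2125 E5/E6 runs in DMSO and 3087 in GSK-LSD1, and most of these held no such start, so their sequence is not shown. The windows run from 250 bases before to 50 bases after an annotated start, 5′ to 3′ on the gene's strand, from RefSeq on GRCm38.p6, with each CpG in capitals. They were chosen after the states had been seen, to set starts that went from E5 in DMSO to E6 in GSK-LSD1 (Runx1, a regulator of blood stem cells, chr16:92697280-92697579, minus strand; Foxp1, a forkhead transcription factor, chr6:99028249-99028548, minus; Fyb, a leukocyte adaptor, chr15:6579597-6579896, plus) beside starts that gained E6 (Tiam1, an exchange factor for the GTPase Rac, chr16:89974650-89974949, minus, from E4; Rapgef2, an exchange factor for the GTPase Rap, chr3:79145697-79145996, minus, from E2) and starts that were E5 in both (Lifr, the receptor for leukaemia inhibitory factor, chr15:7129322-7129621, plus; Mecom, a zinc finger regulator of blood stem cells, chr3:30013155-30013454, minus).
Runx1: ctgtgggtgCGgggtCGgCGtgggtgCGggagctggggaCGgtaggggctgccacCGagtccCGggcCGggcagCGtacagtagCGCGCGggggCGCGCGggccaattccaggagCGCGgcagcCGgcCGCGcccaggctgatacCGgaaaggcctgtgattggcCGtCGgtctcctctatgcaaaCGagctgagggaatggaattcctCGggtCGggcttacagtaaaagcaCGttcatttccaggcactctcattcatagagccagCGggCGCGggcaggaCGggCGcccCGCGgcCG
Foxp1: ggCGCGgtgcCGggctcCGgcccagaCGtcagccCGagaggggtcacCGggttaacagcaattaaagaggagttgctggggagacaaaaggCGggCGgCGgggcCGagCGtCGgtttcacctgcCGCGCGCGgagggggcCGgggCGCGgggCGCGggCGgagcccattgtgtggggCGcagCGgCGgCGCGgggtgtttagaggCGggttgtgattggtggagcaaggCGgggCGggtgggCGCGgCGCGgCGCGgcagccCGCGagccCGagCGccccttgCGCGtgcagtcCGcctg
Fyb: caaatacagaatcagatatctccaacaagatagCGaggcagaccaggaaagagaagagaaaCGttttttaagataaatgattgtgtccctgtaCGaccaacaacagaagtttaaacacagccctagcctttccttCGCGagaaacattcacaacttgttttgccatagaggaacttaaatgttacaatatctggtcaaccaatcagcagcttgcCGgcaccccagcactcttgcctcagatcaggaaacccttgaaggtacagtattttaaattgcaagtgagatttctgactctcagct
Tiam1: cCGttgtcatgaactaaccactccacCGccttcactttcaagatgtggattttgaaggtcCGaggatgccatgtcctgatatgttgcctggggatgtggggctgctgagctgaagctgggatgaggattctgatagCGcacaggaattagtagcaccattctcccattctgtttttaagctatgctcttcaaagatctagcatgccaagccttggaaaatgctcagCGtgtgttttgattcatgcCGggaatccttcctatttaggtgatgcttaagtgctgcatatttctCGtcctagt
Rapgef2: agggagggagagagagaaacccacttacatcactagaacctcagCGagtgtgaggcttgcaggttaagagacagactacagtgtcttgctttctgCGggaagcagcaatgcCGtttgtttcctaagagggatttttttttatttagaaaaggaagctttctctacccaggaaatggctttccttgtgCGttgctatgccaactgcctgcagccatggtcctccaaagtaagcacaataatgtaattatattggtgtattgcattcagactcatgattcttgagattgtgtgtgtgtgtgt
Lifr: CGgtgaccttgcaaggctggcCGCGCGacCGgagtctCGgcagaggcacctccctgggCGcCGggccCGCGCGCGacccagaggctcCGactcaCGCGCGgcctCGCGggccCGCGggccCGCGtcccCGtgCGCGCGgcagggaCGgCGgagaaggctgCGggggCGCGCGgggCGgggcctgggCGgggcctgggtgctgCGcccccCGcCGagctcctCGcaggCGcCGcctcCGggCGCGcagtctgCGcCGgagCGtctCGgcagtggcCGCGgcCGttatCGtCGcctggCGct
Mecom: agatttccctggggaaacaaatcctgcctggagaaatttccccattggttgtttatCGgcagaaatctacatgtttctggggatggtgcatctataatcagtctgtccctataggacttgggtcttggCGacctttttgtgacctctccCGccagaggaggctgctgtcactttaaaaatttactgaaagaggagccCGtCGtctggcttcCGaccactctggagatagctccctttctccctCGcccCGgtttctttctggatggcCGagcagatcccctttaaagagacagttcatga

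The Runx1 and Foxp1 windows held 35 and 44 CpG, the Lifr window 53, and the Fyb, Tiam1, Rapgef2 and Mecom windows 6, 7, 4 and 9. Over all 1672 distinct starts inside interiors windows ranged as widely. The 106 starts that were E5 in both segmentations had a median of 19 CpG per window, and 61.3% of them had at least 15. Those that went from E5 to E6 numbered 79, with a median of 13 CpG and 48.1% at 15 or more. The 34 starts that gained E5 or E6 had a median of 5.5, with 11.8% at 15 or more, and 87 starts that went from E2 to E1 had a median of 4. All 1672 starts inside interiors had a median of 4 CpG, with 11.1% at 15 or more, so the starts that gained E5 or E6 were near that share. Of all 32851 promoter windows in the table, inside interiors or not, 34.6% had at least 15 CpG. A CpG count is a property of the window and was not tested as a cause of its state.

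Inside long genes with an E5/E6 end, marked chromatin covered 41.5% of the interior in DMSO and 50.7% in GSK-LSD1, and the states that differed most in size were E1 and E6. E1 went from 1.16% (95% Wilson interval 1.14 to 1.18) to 10.7% (10.7 to 10.8), a ratio of 9.24. E6 went from 0.250% to 2.32%, a ratio of 9.29. These ratios were not particular to interiors: over all of chromosomes 1 to 19 and X they were 9.78 for E1 and 9.58 for E6. There E1 went from 0.483% to 4.72% and marked chromatin from 26.7% to 29.9%. In the 20 kb of the long genes next to their ends the ratio of E1 was 9.41. In these interiors E1 and E6 moved as follows by chromosome. Both states were larger on 19 of 19 autosomes. E4 and E5 were smaller, going from 2.64% to 1.20% and from 0.955% to 0.390%, each lower on 19 of 19 autosomes. The broad state E2 stayed close to its size, at 36.5% and 36.1%, and was higher on 6 autosomes and lower on 13. E5 and E6 together went from 1.20% to 2.71%, and the ratio over autosomes was 2.27 ± 0.252 (SD, n = 19 autosomes).

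Genes without an E5/E6 end had far less marked chromatin in both segmentations, 11.0% in DMSO and 12.7% in GSK-LSD1. E1 went from 0.163% to 1.99% there, a ratio of 12.3, and E6 from 0.0404% to 0.470%. The gain in marked share was 9.23 percentage points with an E5/E6 end and 1.71 points without one. Over autosomes these gains were 9.08 ± 3.53 points (SD, n = 19), above 0 on 19 of 19, and 1.92 ± 2.47 points, above 0 on 15 of 19. The difference between the classes was not tested, and the classes also differed in their DMSO share. The 20 kb of the same long genes next to their ends gained 2.95 points of marked chromatin, from 44.4% to 47.4%, and E2 went from 34.4% to 29.2%. Intergenic bins more than 20 kb from any protein-coding gene end, 1208 Mb in all, went from 9.46% to 11.9% marked and from 0.153% to 1.93% E1, which is close to the genes without an E5/E6 end.

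**Figure D1:**
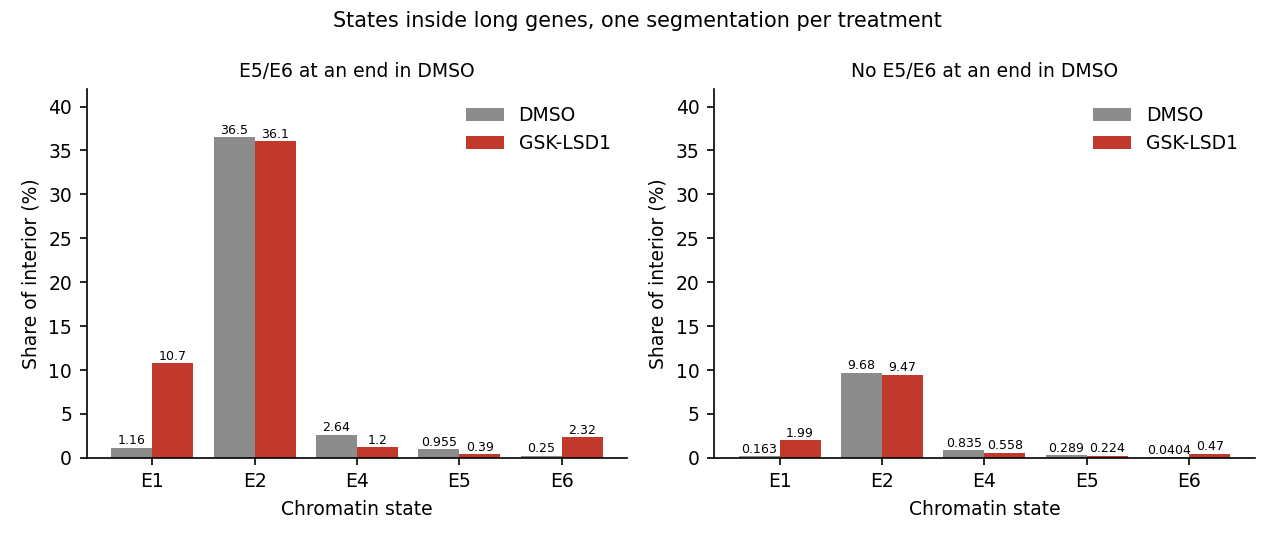
Share of the interiors (vertical axis, percent of bases) in each marked state (horizontal axis) in DMSO (grey) and GSK-LSD1 (red), for genes with an E5/E6 end (left) and without one (right). E2 is the tallest pair in both panels and hardly moves, while E1 goes from 1.16% to 10.7% on the left and from 0.163% to 1.99% on the right; there is 1 segmentation per treatment, so no error bars are drawn.

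The near constant size of E2 hid a large turnover. In genes with an E5/E6 end, 23.3% of the E2 bins of DMSO were E1 in GSK-LSD1, 10.5% were background and 63.7% were still E2. This E2-to-E1 change covered 18.5 Mb and supplied 79.0% of all E1 of GSK-LSD1 in these interiors. Over all of chromosomes 1 to 19 and X, 17.0% of E2 became E1, which supplied 76.6% of the E1 there. In the other direction, 21.5% of the background bins, 27.4 Mb, became E2. Gains of marked chromatin thus came to 28.6 Mb, of which 95.6% was E2, and losses to 8.49 Mb, of which 97.9% had been E2. These shares were not particular to interiors, at 92.3% and 96.3% over all of chromosomes 1 to 19 and X. E5/E6 was entered over 3.43 Mb and left over 0.140 Mb. E5 mostly passed to E6, with 75.1% of its bins, while 18.8% kept their state. E4 changed most often, with 40.2% of its bins in E1, 31.1% in E6 and 12.03% still E4.

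Turnover in genes without an E5/E6 end was more even. There 25.01% of the E2 bins became background and 15.8% became E1, and 4.46% of the background became E2. Gains came to 12.2 Mb and losses to 7.24 Mb. A smaller share of E5 passed to E6, 51.2%, and 38.8% kept its state.

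Counted by gene, E1 was higher far more often than lower, unlike E2. Among the 1276 genes with an E5/E6 end and at least 20 kb of interior, E1 was higher in GSK-LSD1 in 806 and lower in 21, while E2 was higher in 448 and lower in 649. An amount at least 1.5-fold higher, with amounts under 1 kb set to 1 kb, was found for E1 in 747 of them (58.5%, Wilson interval 55.8 to 61.2). In the bodies of all 9948 protein-coding genes of at least 20 kb the same rule called 41.7%. These bodies run from end to end and so include the starts and the 20 kb beside them, which interiors leave out. Over all 2399 interiors the rule called 42.2%. It called E1 higher in 266 of 1123 genes without an E5/E6 end, which is 23.7%. A fall of E1 by this rule was seen in 7 genes with such an end (0.549%) and in 1 without (0.0890%). The same fall was seen in 0.734% of all bodies.

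Marked chromatin moved in both directions. With an E5/E6 end it was higher in 532 genes, lower in 238 and equal in 506, where 29.9% of all bodies were higher and 20.1% lower. Past the 1.5-fold rule, 329 (25.8%) were higher and 138 (10.8%) lower, against 18.3% and 12.2% of all bodies and 21.7% and 14.3% of all 2399 interiors. Without an E5/E6 end 192 genes (17.1%) were higher and 205 (18.3%) lower, so the share higher was near that of all bodies. The order of these 2 counts was not stable: with a margin of 50 kb it was 140 higher and 132 lower, and with E2 counted as background 313 and 48. E5/E6 was higher past the rule in 435 genes (34.1%) with such an end and in 189 (16.8%) without. The share was 26.0% of all 2399 interiors, and 35.1% of all bodies, which include the starts. E5/E6 was lower past the rule in 5 genes with such an end (0.392%) and in 10 without (0.890%), against 0.774% of all bodies.

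The gains often took a gene to complete coverage. Interiors marked from end to end numbered 385 in DMSO and 585 in GSK-LSD1 among genes with an E5/E6 end, 344 of them in both. Without such an end there were 73 and 115, 60 in both. The marked share went up by 50 points or more in 121 genes with an E5/E6 end and down by as much in 17, and without one in 38 and 14. At the other extreme, 155 and 458 interiors had no marked bin in either segmentation. Marked stretches were fewer and longer: in the first class 1756 stretches with a median of 32800 bp became 1520 with a median of 61400 bp, and in the second 1020 with a median of 15400 bp became 804 with a median of 21100 bp.

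**Figure D2:**
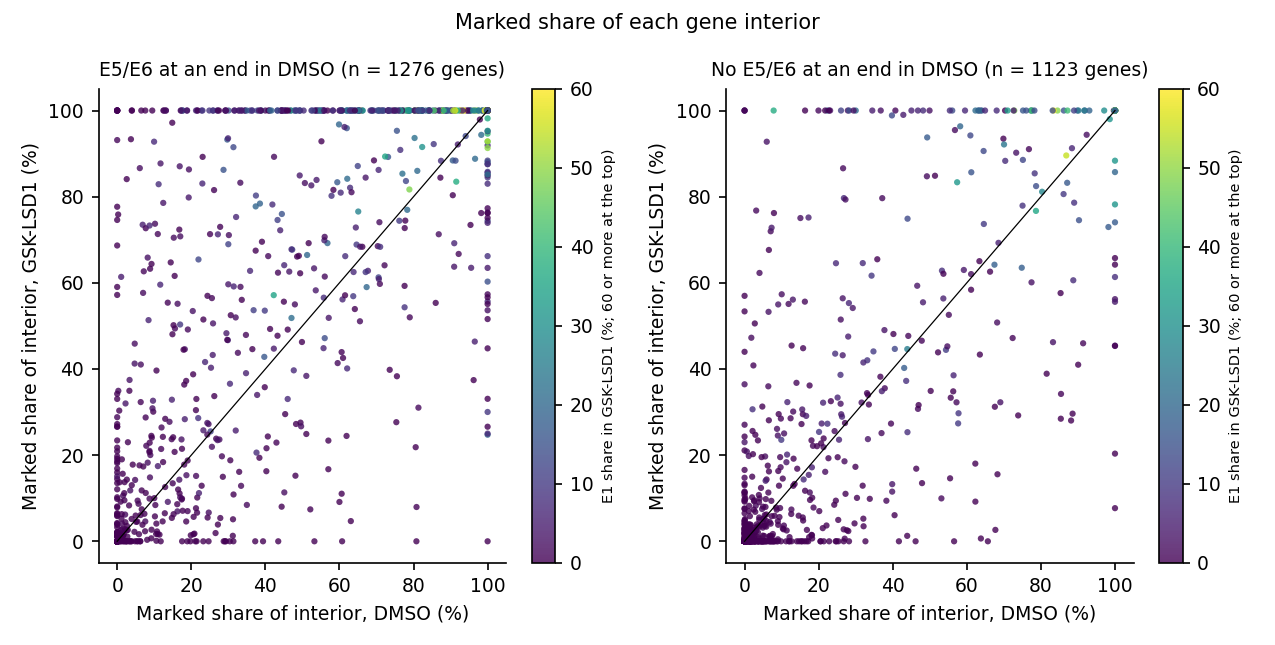
Marked share of each gene interior of at least 20 kb in DMSO (horizontal axis, percent) and GSK-LSD1 (vertical axis, percent), 1 point per gene, coloured by the E1 share in GSK-LSD1, for 1276 genes with and 1123 without an E5/E6 end; the line marks equal shares. Points gather along the top edge, where 585 and 115 interiors were fully marked in GSK-LSD1, and at the lower left corner, where 155 and 458 had no marked bin in either segmentation.

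The 5 genes with an E5/E6 end that gained most marked chromatin were Arhgap15, Mecom, Inpp4b, Kcnq5 and Ccser1. Arhgap15 (chr2:43748798-44395953), a GTPase-activating protein for Rac in leukocytes, had 218 kb marked in DMSO and 607 kb in GSK-LSD1, its whole interior. Mecom (chr3:29951296-30509759) went from 174 kb to 518 kb, again the whole interior. Both were filled mainly by E2, which reached 546 kb in Arhgap15 and 468 kb in Mecom, while E1 went from 1.0 to 57.6 kb and from 0 to 35.8 kb. Inpp4b (chr8:81342266-82134312), a phosphatase of phosphoinositides, went from 63.6 to 386 kb of 751 kb. Kcnq5 (chr1:21398399-21962650), a voltage-gated potassium channel, went from 101 to 418 kb of 524 kb. Ccser1 (chr6:61179960-62382863) went from 73.8 to 376 kb of 1163 kb. Inpp4b, Kcnq5 and Ccser1 thus kept stretches of background in GSK-LSD1.

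Without an E5/E6 end the largest gains were in Pde4d, Grik2, Tbc1d5, Stag1 and Exoc4. Pde4d (chr13:108654177-109955969), a phosphodiesterase that breaks down cyclic AMP, went from 734 to 1215 kb of 1262 kb. Its E1 went from 4.8 to 247 kb and its E5/E6 from 43.0 to 88.0 kb, so the absence of E5/E6 at its ends did not mean that E5/E6 was absent from it. Exoc4 (chr6:33249090-33973979), a subunit of the exocyst, went from 438 to 685 kb and Tbc1d5 (chr17:50733124-51181199), a regulator of Rab GTPases, from 122 to 408 kb, both to the whole interior. Stag1 (chr9:100597709-100958544), a cohesin subunit, went from 19.2 to 297 kb of 321 kb. Grik2 (chr10:49093680-49790161), a kainate-type glutamate receptor, went from 59.6 to 361 kb of 656 kb, and 335 kb of that was E2.

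Gained stretches of at least 40 kb numbered 321 and lost ones 68. The longest gained stretch lay in Stag1, 277 kb at chr9:100661001-100938400, and 97.2% of it was E2. Next was 222 kb in Mbd5 (chr2:49010401-49232800), a gene for a methyl-CpG-binding-domain protein whose interior went from 8.4 to 275 kb marked and held no E1 and no E5/E6 in either segmentation. The third was 173 kb in Exoc4 (chr6:33337201-33510200), 97.9% of it E2. These stretches were therefore broad E2, with little of the states typical of gene ends.

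**Figure D3:**
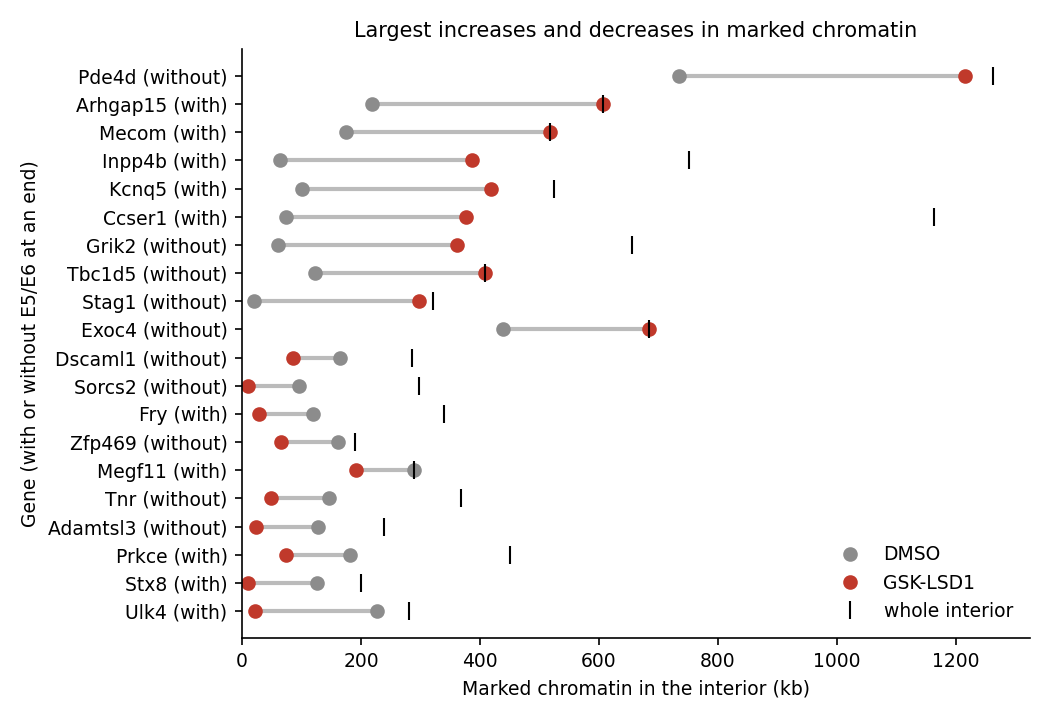
Marked chromatin in the interior (horizontal axis, kb) in DMSO (grey) and GSK-LSD1 (red) for the 5 genes with the largest increase and the 5 with the largest decrease in each class, named on the vertical axis with their class; the black tick is the length of the whole interior. Arhgap15, Mecom, Tbc1d5 and Exoc4 reach their tick in GSK-LSD1, and the decreases, up to that from 227 to 22.4 kb in Ulk4, are smaller than the largest gains.

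Decreases were of background replacing E2. With an E5/E6 end they were largest in Ulk4, Stx8, Prkce, Megf11 and Fry. Ulk4 (chr9:120964454-121286159), a pseudokinase, went from 227 to 22.4 kb of 281 kb, and its E2 from 225 to 19.4 kb. Stx8 (chr11:67966411-68207148), a syntaxin of endosomes, went from 126 to 9.4 kb, all of it E2. Prkce (chr17:86167785-86657919), a protein kinase C, went from 181 to 73.2 kb, Megf11 (chr9:64385617-64714179) from 288 to 191 kb and Fry (chr5:150118618-150497753) from 119 to 28.6 kb. The longest lost stretches were 105 kb in Kalrn (chr16:33989201-34094600), 96.6 kb in Stx8 (chr11:68075401-68172000) and 95.8 kb in Ulk4 (chr9:121098001-121193800).

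Without an E5/E6 end the largest decreases were in Adamtsl3, Tnr, Zfp469, Sorcs2 and Dscaml1. Adamtsl3 (chr7:82335399-82614450) went from 127 to 23.8 kb marked and Zfp469 (chr8:122043123-122272650), a zinc finger gene, from 162 to 64.8 kb. Tnr (chr1:159523729-159931729), the matrix protein tenascin R, went from 147 to 48.8 kb, while its E1 went from 0 to 13.6 kb. Sorcs2 (chr5:36017180-36398197), a sorting receptor of neurons, went from 95.8 to 10.4 kb. Dscaml1 (chr9:45427433-45753713), a neuronal adhesion molecule, went from 165 to 85.0 kb, while its E1 went from 4.6 to 26.4 kb. The decreases rest on E2: when E2 was counted as background, 8 of these 10 genes, all but Stx8 and Fry, had slightly more marked chromatin in GSK-LSD1.

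The largest increases in E1 were in genes that were already mostly marked in DMSO. Fam155a (chr8:9206006-9773329), an auxiliary subunit of a sodium leak channel, had 23.8 kb of E1 in DMSO and 274 kb in GSK-LSD1, while its E2 went from 424 to 217 kb. Pde4d was next, with the values above. Foxp1 (chr6:98925342-99522746) went from 9.2 to 241 kb of E1. In Tiam1 (chr16:89787111-90145600) E1 went from 16.2 to 220.2 kb and E2 from 237 to 30.6 kb, with the interior of 318 kb fully marked in both. Babam2 (chr5:31697978-32084950), a subunit of deubiquitinase complexes, went from 8.2 to 202 kb of E1. In each of these 5 genes except Pde4d the amount of E2 was lower in GSK-LSD1.

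E1 runs became more numerous and longer. Genes with an E5/E6 end held 1121 E1 runs with a median of 1600 bp in DMSO and 4828 with a median of 3000 bp in GSK-LSD1, up to 70000 bp. Without such an end there were 248 and 1440 runs. New E1 lay near E5/E6: its median distance to the nearest E5/E6 bin of either segmentation was 7.6 kb in the first class and 6 kb in the second. E2 bins of GSK-LSD1 lay 34.8 and 29.2 kb away. Still, 25.9% and 23.2% of the new E1 bins were more than 20 kb from any E5/E6.

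E5/E6 sites inside long genes also increased in number. Genes with an E5/E6 end had 1524 internal E5/E6 runs in DMSO and 2202 in GSK-LSD1, with medians of 1200 and 1600 bp. Of those in GSK-LSD1, 1078 (49.0%) overlapped no E5/E6 in DMSO. These sites had been mostly E4 in 520 cases, E2 in 358, E1 in 179 and background in 21. In genes without an E5/E6 end 606 runs became 891, of which 408 were new, 240 of them mostly E4 in DMSO. Few new sites therefore arose on background.

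The largest increases in internal E5/E6 were in Maml3, Tiam1, Pde4d, Cux1 and Gse1. Maml3 (chr3:51687320-52105319), a coactivator of Notch signalling, went from 22.0 to 72.8 kb of E5/E6 and from 25.4 to 212 kb of E1, in an interior of 378 kb that was fully marked in both. Tiam1 went from 17.6 to 65.8 kb of E5/E6. Cux1 (chr5:136248135-136567590), a homeobox transcription factor, went from 11.8 to 47.8 kb. Gse1 (chr8:120228501-120581383) went from 51.6 to 82.6 kb of E5/E6, while its marked chromatin went from 313 to 285 kb, a decrease that also turned when E2 was counted as background. In Maml3, Tiam1 and Cux1 E4 was nearly emptied, from 33.2 to 0.2 kb, from 47.2 to 1.6 kb and from 38.4 to 0 kb.

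Gene lists gave the tissue context. Over all 2399 interiors E1 was higher in 1109 and lower in 26, with a median change of 0 kb, and marked chromatin was higher in 829 and lower in 542, also with a median change of 0 kb. Of the 25 myeloid and progenitor regulators with an interior, E1 was higher in 21 and lower in 0, with a median change of 45.8 kb. Their summed E1 went from 5.11% to 29.0% of the interior and their marked share from 60.2% to 73.6%. Marked chromatin was higher in 10 and lower in 4, and 11 were equal. The median marked share of these 25 genes in DMSO was already 100%. Among all 490 genes with an E5/E6 end and 80% or more of the interior marked in DMSO, E1 was higher in 451. Their E1 share went from 3.83% to 31.0%, and that of the 106 such genes without an E5/E6 end from 2.37% to 23.3%. The E1 change was therefore not particular to this list, and the lists were not matched for their DMSO share. Genes best known from other tissues had little marked chromatin in DMSO: 2.48% over 101 synaptic and neuronal adhesion genes and 4.63% over 21 muscle and heart genes. Endothelial and stromal genes stood at 18.2%, and B and T lymphocyte genes at 40.3%.

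Among the myeloid and progenitor regulators, Foxp1 and Cux1 are described above. The next examples were chosen after their values had been seen. Etv6, an ETS-family repressor, was fully marked in both, and its E1 went from 70.8 to 162 kb while its E2 went from 101 to 0 kb. Zeb2, a zinc finger repressor, went from 0 to 77.8 kb of E1 in an interior of 93.8 kb. Jak1, the kinase downstream of cytokine receptors, went from 9.8 to 63.8 kb, and Ikzf2, an Ikaros-family factor, from 5.2 to 91.8 kb of E1. In Runx1 E1 went from 53.4 to 87.2 kb and E5/E6 from 31.0 to 60.2 kb. Mef2a (chr7:67231163-67376456), a MADS-box factor, differed from these: its interior of 105 kb had no marked bin in DMSO and was fully marked in GSK-LSD1, 99.2 kb of it E2. Erg, an ETS factor of stem cells, was the reverse in part, with marked chromatin going from 187 to 146 kb while E1 went from 9.8 to 58.4 kb. Rarb, Nfia, Prdm16 and Mef2c had no E1 in either segmentation.

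The 40 leukocyte signalling and adhesion genes had more E1 in 36 and less in 0, with a median change of 30.4 kb. Their E1 share went from 1.60% to 17.1% and their marked share from 56.2% to 68.9%, with 18 higher and 7 lower. Besides Arhgap15 and Inpp4b the largest change was in Elmo1 (chr13:20090507-20608353), an adaptor for Rac activation, from 286 to 462 kb marked. Rapgef2 (chosen after its values had been seen) went from 12.8 to 108 kb of E1. The kinase genes Lyn and Fyn, also chosen that way, went in opposite directions, Lyn from 19.8 to 73.4 kb marked and Fyn from 32.8 to 0 kb, and Lyn's gain was mainly E2.

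Chromatin regulators and widely expressed genes had few decreases. Of 35 chromatin regulators, marked chromatin was higher in 15, lower in 1 and equal in 19, and the summed marked share went from 55.7% to 72.4%. E1 was higher in 27 and lower in 2. Hdac9 (chr12:34047580-34917095), a histone deacetylase, went from 53.2 to 298 kb marked, Mllt3 (chr4:87769925-88033407), a subunit of elongation complexes, from 94.6 to 199 kb, and Kdm4c (chr4:74242497-74405864), a demethylase of histone H3, from 26.8 kb to its whole interior of 123 kb. Kdm4c held no E1 in either. Of the 47 widely expressed genes, marked chromatin was higher in 30 and lower in 2, with a median change of 21.4 kb, and the marked share went from 54.5% to 78.6%. Vps13b (chr15:35371118-35931229), a lipid transfer protein, went from 46.2 to 329 kb, of which 323 kb was E2 and 2.4 kb E1. Vps13a and Herc2, chosen after their values had been seen, also became fully marked by E2, from 43.4 to 126 kb and from 75.4 to 141 kb, with 0 and 0.4 kb of E1 in GSK-LSD1.

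Lymphocyte genes were mixed. Of 21 B and T lymphocyte genes E1 was higher in 14 and lower in 0, and marked chromatin higher in 9 and lower in 5. Bank1 (chr3:136053363-136326141), a B cell adaptor, went from 16.4 to 167 kb marked and Ptprk (chr10:28074820-28597397), a receptor phosphatase, from 138 to 416 kb. Pax5, the regulator of B cell identity, and Lef1, a factor of early lymphocytes, had no marked bin in either segmentation, as had Camk4. Some genes, such as Foxp1, Inpp4b and Ets1, stand in this list and in another, so the lists are not separate.

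Genes of neurons and muscle changed little in sum. Those of endothelium and stroma rose more in sum, though most of them did not rise. In the 101 synaptic genes E1 went from 0.0528% to 0.440%, and marked chromatin was higher in 20, lower in 36 and equal in 45. Kcnq5 and Grik2 are among them, and so is Unc5c (chr3:141465564-141834924), a netrin receptor, which went from 32.8 to 305 kb of 329 kb. Of the 21 muscle and heart genes 8 were higher and 8 lower. Neb (chr2:52136640-52338798), the giant muscle protein nebulin, went from 80.8 kb to its whole interior of 162 kb, Nebl (chr2:17342673-17734949), a nebulin relative, from 46.2 to 106 kb and Palld (chr8:61511431-61902707), an actin-binding protein, from 34.4 to 100 kb. The 21 endothelial and stromal genes went from 18.2% to 26.7% marked and from 0.269% to 2.95% E1. Marked chromatin was higher in 6 of them and lower in 7. Past the 1.5-fold rule 2 were higher and 7 lower, where all 2399 interiors had 21.7% and 14.3%. Their median marked share went from 4.37% to 0%. The largest changes were in Mecom (174 to 518 kb), Adamtsl1 (chr4:85513852-86428390, 226 to 338 kb) and Adamts6 (chr13:104286518-104496695, 5.6 to 59.4 kb). Mecom also stands in the myeloid and progenitor list. Tek and Egfr, receptors of endothelium and epithelium, and Ptprb, an endothelial phosphatase, had no marked bin in either.

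**Figure D4:**
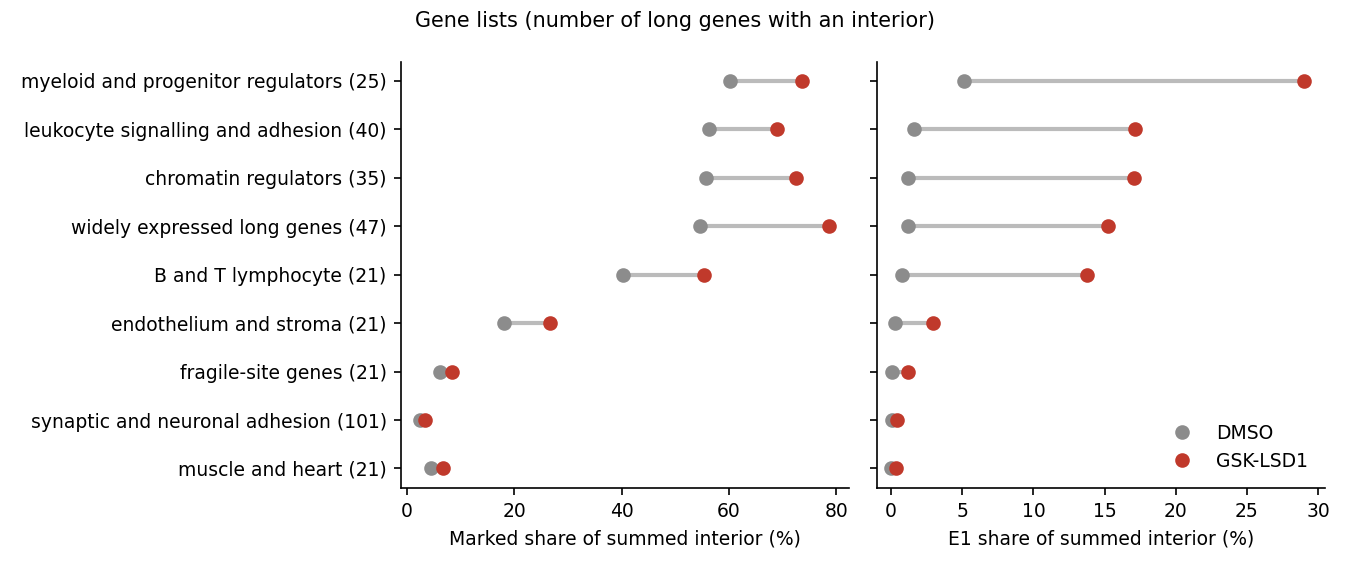
Share of the summed interiors of each gene list (vertical axis, number of genes with an interior in brackets) that was marked (left, percent) and E1 (right, percent) in DMSO (grey) and GSK-LSD1 (red). The myeloid and progenitor list has the highest E1 share in GSK-LSD1, 29.0%, the widely expressed genes the highest marked share, 78.6%, and the synaptic and muscle lists stay under 1% E1.

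The very longest genes stayed mostly background, whichever class they belonged to. Dlg2 (chr7:90476188-92449246), a synaptic scaffold, and Ctnna3 (chr10:63430098-65003667), an alpha catenin of heart, had an E5/E6 end and no marked bin in interiors of 1933 and 1453 kb. Macrod2 (chr2:140395303-142392966), a hydrolase of ADP-ribose, went from 24.8 to 78.0 kb of 1904 kb, and Gpc5 (chr14:115092201-116525192), a glypican, from 76.8 to 131 kb of 1393 kb. Without an E5/E6 end, Ptprd (chr4:75941237-78211742), a receptor phosphatase with the longest interior of all, 2230.2 kb, went from 32.2 to 130.2 kb. Dmd, Cntnap2 and Lsamp, for dystrophin and a pair of neuronal adhesion proteins, had 3.6, 35.8 and 1.0 kb marked in DMSO. Their amounts in GSK-LSD1 were 0, 33.6 and 3.0 kb. The 21 genes known for common fragile sites, which include several of these, went from 6.31% to 8.45% marked, with 10 higher and 8 lower. Rad51b (chr12:79297282-79848260), a recombination factor, went from 225 to 369 kb.

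In GSK-LSD1 E1 declined with distance from the start. In DMSO it was level out to 200 kb and lower beyond when genes of all lengths were pooled. In genes with E5/E6 at a start of known strand, E1 in GSK-LSD1 covered 15.9% of bins 20 to 30 kb from the start (986 genes), 13.7% at 50 to 100 kb (1001 genes), 7.45% at 200 to 400 kb (281 genes) and 1.87% beyond 400 kb (71 genes). In DMSO it was 1.498%, 1.53%, 0.828% and 0.126%. The decline in GSK-LSD1 was also present in the 87 genes of at least 400 kb alone, from 13.0% at 20 to 30 kb (85 genes with such bins) to 1.87% beyond 400 kb. In DMSO these genes had 0.737% E1 at 20 to 30 kb, 0.956% at 50 to 100 kb, 0.446% at 100 to 200 kb and 0.126% beyond 400 kb. DMSO E1 was thus not level out to 200 kb in them. Their ratios of E1 in those bands were 17.6, 9.52, 14.1 and 14.8, with no steady fall. E2 behaved otherwise. At 20 to 30 kb from the start it went from 50.9% in DMSO to 44.6% in GSK-LSD1. At 100 to 200 kb it was 38.8% and 38.6%, and beyond 400 kb it went from 10.2% to 14.8%. The ratio of E5/E6 stayed between 1.97 and 2.31 in every distance band.

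**Figure D5:**
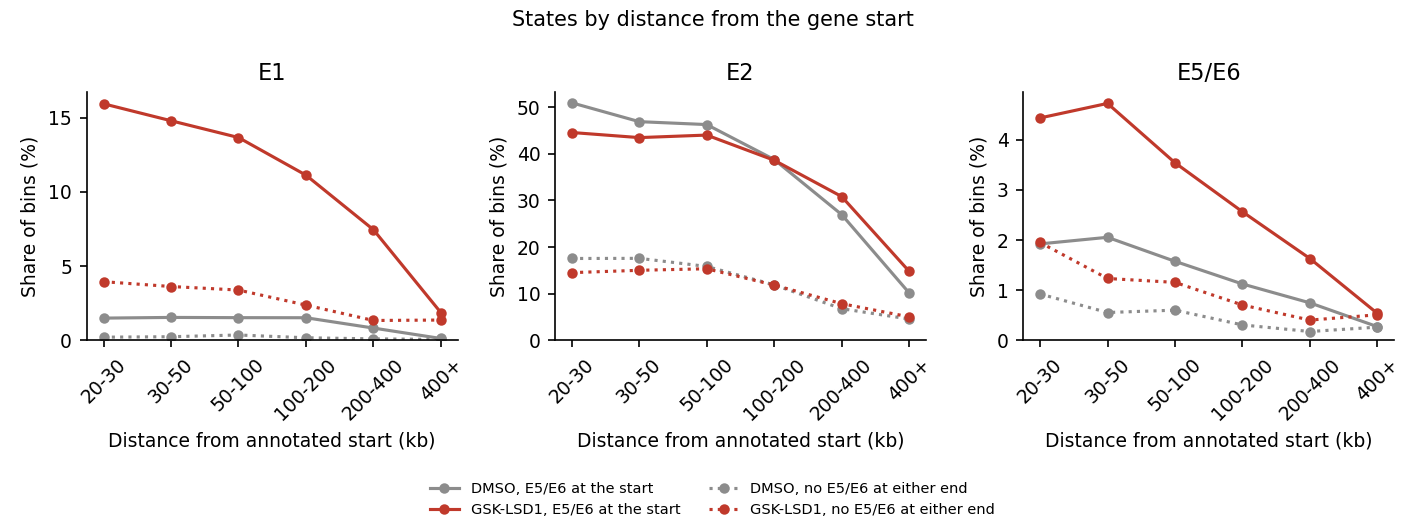
Share of bins (vertical axis, percent) in E1, E2 and E5/E6 by distance from the annotated start (horizontal axis, bands in kb), in DMSO (grey) and GSK-LSD1 (red), for genes of known strand with E5/E6 at the start (solid) or at neither end (dotted). With E5/E6 at the start, E1 in GSK-LSD1 declines from 15.9% to 1.87%, and the E2 lines cross, from lower in GSK-LSD1 near the start to higher beyond 400 kb.

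The class without an E5/E6 end was itself made of unlike genes. In 500 of its genes E5 or E6 lay somewhere else in the gene in DMSO, as in Pde4d and Tiam1. In these, marked chromatin went from 22.3% to 26.6% and E1 from 0.369% to 4.43%, and they held 95.2% of the E1 of this class in GSK-LSD1. In the other 623 genes there was no E5/E6 bin anywhere in DMSO. Their marked share went from 2.50% to 2.30%, so the gain of the class as a whole was not seen there, and E1 went from 0.00604% to 0.166%. This split was made after the data had been seen.

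The values also varied with chromosome X and base composition. On X the marked share of genes with an E5/E6 end was 2.93 times as large in GSK-LSD1, where the autosomes averaged 1.22 ± 0.103 (SD, n = 19), and without such an end 6.27 times as large, from a low share. In points X stood out less: it gained 13.2 with an E5/E6 end, against 9.08 ± 3.53 over autosomes. Without such an end it gained 1.43, against 1.92 ± 2.47. With an E5/E6 end, E1 rose by 2.12 points on X and by 9.85 ± 2.36 over autosomes. Kdm6a, an X-linked histone demethylase, went from 23.0 to 78.8 kb, its whole interior, and Diaph2, an actin-nucleating formin, from 4.2 to 141 kb of 676 kb (both chosen after their values had been seen). Atrx, an X-linked chromatin remodeller, had no marked bin in either. For base composition, the GC content of CpG-poor promoter windows within 1 Mb was used, which gave a value for 2086 genes (87.0%). Genes of both classes were ranked by it together and divided into 5 groups. In the lowest group with an E5/E6 end, the marked share went from 32.6% to 46.4%. Of its 211 genes, 82 went up by 10 points or more while 16 went down. In the highest group it went from 61.3% to 63.8%, with 54 of 245 genes up and 44 down. Without an E5/E6 end the lowest group (210 genes) went from 7.80% to 10.6%, with 38 up and 15 down. The highest (152 genes) went from 20.5% to 18.0%, with 11 up and 33 down. Among all interiors of at least 20 kb, 404 of 1276 genes with an E5/E6 end went up and 127 down. Without one, 151 of 1123 went up and 112 down. The groups were not matched for their DMSO share. The rank correlation of GC with the change in marked share across genes, which are not independent replicates, was -0.16 in both classes (n = 1146 and 940). For the change in E1 it had the opposite sign, 0.12 and 0.080. With an E5/E6 end E1 went from 0.456% to 8.22% in the lowest group and from 2.62% to 15.8% in the highest. The part of base composition in the result was not tested.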

How the data were processed

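Per the labels, the authors made 1 segmentation per treatment from 3 histone marks and deposited state labels E1 to E6 (a category per segment, with no counts, scores or signal). The tool Bowtie and the builds mm10 and GRCm38 are listed, with no role stated, per the submitters' processing notes. How marks were called present, how the input was used, with which tool states were made and whether both treatments were fitted at once are not given in the sources that were used. If, as is usual, marks were called past a threshold, library depth and quality can change the extent of a state.

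The segments (136061 in DMSO, 162731 in GSK-LSD1) were expanded to 200 bp bins and compared bin by bin with numpy 2.4.6 and pandas 2.3.3. Genes came from RefSeq (GRCm38.p6). A bin in overlapping long genes of both classes (0.448 Mb) counts in each. Named genes were, among interiors of at least 20 kb, the 4 longest, the 5 largest increases and 5 largest decreases in marked kb per class, the 5 largest increases in E1 and in E5/E6, the 3 longest gained and lost stretches, and the 3 members of each of 9 lists (435 entries) with the largest change. The members and lists were chosen with earlier results of these data known. The 1.5-fold rule, the bands of marked share, the 15 CpG limit, the printed sequences and the GC window were chosen after the data had been seen. Several GC windows were tried, and the one kept gave a value for over 80% of genes. The per-gene counting was run on simulated data, a copy of the DMSO states with E1 planted in 200 of 2399 genes. It was recovered in 200, with 0 false calls. The copy held no noise and any difference was a call, so this outcome was fixed in advance. It checks the counting alone and says nothing of the 1.5-fold rule. Alternatives covered gene length, margin, gene types, the end class, weighting, short runs, chromosomes and E2 as background.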

Additional observations from a re-analysis of the deposited data

How the results depend on the processing

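No paired analysis was possible because the replicate numbers of the libraries only name the mark, and each treatment has 1 segmentation. These 4 values were recomputed: the change in marked share with an E5/E6 end (9.23 points), the same without one (1.71), and the changes in E1 (9.59) and E5/E6 (1.51) with such an end. In that order they were 9.27, 1.55, 7.55 and 1.16 for genes of at least 200 kb, and 9.47, 1.61, 10.4 and 1.62 for genes of at least 60 kb. With a margin of 50 kb they were 9.54, 1.91, 8.14 and 1.26, and with 10 kb 8.96, 1.59, 9.89 and 1.59. With ends of genes of any type they were 9.68, 2.05, 8.97 and 1.33, with E5/E6 within 1 kb of an end 8.68, 1.29, 9.04 and 1.42, and as a mean over genes 9.20, 1.98, 12.1 and 1.97. On autosomes E1 was at 9.76. Leaving out 1 chromosome at a time gave 8.78 to 9.54, 1.47 to 1.963, 9.32 to 9.76 and 1.47 to 1.54. With E5/E6 at the start of genes of known strand, chosen after seeing the data, the values were 9.44, 2.18, 9.52 and 1.55. The direction of the 4 values was the same in all of these. It turned for 1 alternative, also chosen after seeing the data: genes without E5/E6 in any bin had a change in marked share of -0.20 points, which is made from fewer genes.

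With E2 also counted as background the marked changes were 9.65 and 1.92 points, and 782 genes with an E5/E6 end were higher past the 1.5-fold rule and 39 lower, where E2 as marked gave 329 and 138. Without such an end there were 313 and 48, where E2 as marked gave 192 and 205. By construction this setting leaves out E2, and it turned the decreases in marked kb into increases of 2.4 kb in Adamtsl3, 24.6 in Dscaml1, 8.4 in Megf11, 1.6 in Prkce, 0.4 in Sorcs2, 7.2 in Tnr, 1.0 in Ulk4 and 3.0 in Zfp469. Counts of genes past the 1.5-fold rule (E1 higher with and without an E5/E6 end, then marked higher and lower with one, then without one) also moved where fewer or more genes or bins entered. They were 255, 129, 136, 52, 93 and 121 for genes of at least 200 kb. With 60 kb, E1 higher was at 1257, marked higher at 549 and lower at 210, all with such an end. With the 50 kb margin, E1 higher was at 455 and 173, and without such an end marked higher was at 140 and lower at 132. Smaller changes turned too: Gse1 went from -27.2 to 67.8 kb with E2 as background, and Cntnap2 from -2.2 kb to 7.8 kb with the 10 kb margin, 8.6 kb with ends of genes of any type and 2.8 kb with E2 as background. No other named gene went from an increase to a decrease or back. Replacing runs of 1 bin moved none of the 4 values beyond its interval.

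The main limit is that each treatment has 1 segmentation and no replicate, so a difference in depth or precipitation between libraries cannot be told apart from the treatment. State labels hold no signal, so a change of state gives no size of change in any mark, and depth is unknown.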

Other observations

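Of 118 miRNA hairpins (RefSeq) that lay inside interiors, 68 were background in both segmentations and 13 were E2 in both. E2 in DMSO and E1 in GSK-LSD1 was found at 13, among them Mir340 in Rnf130, Mir5129 in Zeb2, Mir721 in Cux1, Mir582 in Pde4d and Mir763 in Hmga2. E5 in DMSO and E6 in GSK-LSD1 was found at 3, Mir1904 in Pde4d, Mir3075 in Zmiz1 and Mir7687 in Gse1. Hairpins that went from background to E2 numbered 7, among them Mir128-1 in R3hdm1 and the neighbours Mir181a-2 and Mir181b-2 in Nr6a1. The 6 that went from E2 to background included Mir199a-2 and Mir214 in Dnm3 and Mir211 in Trpm1. Over all interior bins, 21.3% of E2 went to E1 and 14.3% to background, 10.1% of background went to E2, and 68.3% of E5 went to E6. Whether hairpins differ from other interior bins was not tested. The state of a hairpin's bin says nothing of the level of its miRNA, which was not measured. These hairpins were picked after their states had been seen.

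The outermost start of a long gene also differed in sequence between the classes. Among genes of known strand, 1016 with an E5/E6 end had a median of 25 CpG in the promoter window of that start, and 77.6% had at least 15. The 848 without such an end had a median of 12, and 45.2% had at least 15. E5/E6 at an end was lost in GSK-LSD1 by 62 of the 1281 genes that had it in DMSO, and 97 of the 1146 that lacked it had it in GSK-LSD1.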
